A study of Mus musculus with 39 samples.

Results

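The report covers 10 genes of de novo lipogenesis, the synthesis of fatty acids from carbohydrate, in epididymal adipose tissue of the mouse. Acly, Acaca, Fasn, Scd1, Scd2, Elovl6 and Me1 encode enzymes, while Thrsp, Mlxipl and Srebf1 encode regulators. Each gene was found by its name on an Agilent one-colour array and was read from its brightest probe. The array carries 40628 probes with 29411 gene names, and 14 probes belonged to the 10 genes. All 10 genes were well above background on each of the 39 arrays where their spot gave a value, and 2 values were missing (Fasn on HF75 week 18 and Mlxipl on HFC week 12). The level of a gene is the log2 of the processed spot signal minus the 75th percentile of that array, so that a difference of 1 in level is a doubling. Levels of different probes are not on a common scale and are not set against each other.

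The C57BL/6J mice were weaned at 3 to 4 weeks of age and divided over 5 groups of 30 animals. The LFC group ate a low fat diet with 10% of calories from fat, and the HFC group ate a diet with 60% of calories from fat and increased sucrose. The HF5, HF20 and HF75 groups ate the HFC diet and received 5, 20 or 75 µg of KAL-1, a plant-based formulation. The LFC group has 11 arrays (days 1, 6, 10 and 14 and weeks 0, 3, 6, 9, 12, 15 and 18). The HFC group has 10 arrays, with no array at day 1. Each KAL-1 group has 6 arrays, from week 3 to week 18. The weeks were counted from day 14. There is 1 array per group and time point, and whether an array holds RNA of 1 animal or of several is not given in the sources used here. The p-values for HFC against LFC over 10 time points therefore measure how that difference varied between time points. Those for diet or KAL-1 over weeks 3 to 18 come from 1 fit of all 5 groups. They measure how the arrays varied once group and week were allowed for, not how a single difference varied. Those for late against early arrays measure the spread between time points. Those for the effect of week measure how the arrays of a week varied once their group was allowed for. None measures the spread between animals at a time point.

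Citrate leaving the mitochondrion is split by ATP citrate lyase (Acly) into acetyl-CoA, which acetyl-CoA carboxylase (Acaca) turns into malonyl-CoA. Fatty acid synthase (Fasn) builds palmitate from malonyl-CoA with NADPH, part of which comes from malic enzyme (Me1). Elovl6 lengthens palmitate to stearate, and the stearoyl-CoA desaturases Scd1 and Scd2 place a double bond in the chain. The transcription factors ChREBP (Mlxipl) and SREBP-1 (Srebf1) switch these genes on in response to glucose and insulin, and Thrsp, also called Spot 14, is a small protein that promotes lipogenesis. In adipose tissue the pathway is known to be active in fed animals on a carbohydrate-rich diet and low when dietary fat is plentiful.

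Promoter sequences are shown for the synthase, for the lyase, for the regulators Thrsp and Mlxipl, and for Elovl6, whose mean level differed most of the 10 between diets. They come from RefSeq on GRCm38.p6, which held windows for 8 of the 10 genes, and each gives the 250 bases before the gene's start, 5′ to 3′ on the gene's strand. Capitals mark CCAAT (the box bound by NF-Y), GGGCGG (the GC box bound by Sp1) and CACGTG (an E-box), searched on both strands. The Fasn window lies at chr11:120824548-120824797 on the minus strand, Thrsp at chr7:97417551-97417800 (minus), Acly at chr11:100528001-100528250 (minus), Mlxipl at chr5:135089640-135089889 (plus) and Elovl6 at chr3:129532136-129532385 (plus).
Fasn: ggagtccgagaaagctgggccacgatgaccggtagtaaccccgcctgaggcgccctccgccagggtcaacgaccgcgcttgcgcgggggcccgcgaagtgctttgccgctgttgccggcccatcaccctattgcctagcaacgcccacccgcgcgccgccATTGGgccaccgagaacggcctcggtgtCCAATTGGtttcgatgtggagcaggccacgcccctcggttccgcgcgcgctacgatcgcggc
Thrsp: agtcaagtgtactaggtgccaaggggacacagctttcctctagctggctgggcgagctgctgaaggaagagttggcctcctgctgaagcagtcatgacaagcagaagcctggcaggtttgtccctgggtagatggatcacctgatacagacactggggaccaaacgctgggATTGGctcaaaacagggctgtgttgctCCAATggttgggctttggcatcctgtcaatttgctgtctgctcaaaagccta
Acly: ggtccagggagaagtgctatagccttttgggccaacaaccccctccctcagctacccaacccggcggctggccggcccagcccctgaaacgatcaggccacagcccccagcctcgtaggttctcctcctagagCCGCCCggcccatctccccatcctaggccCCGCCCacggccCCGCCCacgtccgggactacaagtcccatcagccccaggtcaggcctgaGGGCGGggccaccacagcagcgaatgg
Mlxipl: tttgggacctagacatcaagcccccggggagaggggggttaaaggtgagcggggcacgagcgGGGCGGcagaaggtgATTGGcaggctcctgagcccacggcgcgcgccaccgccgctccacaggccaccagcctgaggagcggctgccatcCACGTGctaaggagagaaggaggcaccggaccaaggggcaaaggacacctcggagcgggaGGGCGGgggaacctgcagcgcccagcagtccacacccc
Elovl6: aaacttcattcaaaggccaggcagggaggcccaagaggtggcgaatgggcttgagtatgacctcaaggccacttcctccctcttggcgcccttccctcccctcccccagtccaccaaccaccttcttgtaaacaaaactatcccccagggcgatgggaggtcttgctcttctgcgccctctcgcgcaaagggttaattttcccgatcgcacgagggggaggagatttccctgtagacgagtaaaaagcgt
The Fasn window held 3 CCAAT boxes, a pair of which overlap on opposite strands, and the Thrsp window held 2. The Acly window held 4 GC boxes. The Mlxipl window shown held 1 CCAAT box, 2 GC boxes and, 98 bases before the start, the only E-box found in any window of the 8 genes. Another Mlxipl window, not shown, held none of the motifs. None of the motifs was found in the Elovl6 window. The 8 genes had 12 windows, with more than 1 for Me1, Mlxipl and Srebf1. CCAAT was present in 6 of the 12 windows and in 33.9% of all 32851 RefSeq windows of this length. GGGCGG was present in 5 of 12 and in 32.7%, and CACGTG in 1 of 12 and in 6.02%. Counted by gene, in any of its windows, these were 5, 4 and 1 of 8. A match describes letters only and says nothing of binding.

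2 arrays stood apart from the rest, and the ranges and medians by group below include them. The LFC week 3 array had 97.1% of its probes above background by the scanner's test. It held 16431 outlier spots, and its median rank correlation with the other arrays was 0.465. The HFC week 12 array had 94.5%, 10531 and 0.809. The other 37 arrays had 53.7% to 79.6%, 21 to 387 outlier spots and correlations of 0.901 to 0.950. The arrays were scanned on 13 dates. Each time point was scanned on 1 date, except that LFC week 3 had a date apart from the other week 3 arrays, and that at week 6 HF20 and HF75 were scanned on another date than LFC, HFC and HF5. The week 3 difference of HFC from LFC and the week 6 differences of HF20 and HF75 from HFC therefore cross scan dates. The tissue label was checked against markers. Fabp4, a fatty acid carrier of adipocytes, was saturated on 39 of 39 arrays. At week 6, the visceral depot markers Wt1 and Tcf21 were higher on the HF20 array (-1.40 and -1.36) than on the other 4 (-4.40 to -7.79 and -3.70 to -8.09, with HF5 and HF75 not well above background). At the same week Tbx15, a gene of subcutaneous fat, was not well above background on the HF20 array and lay between -0.52 and -1.46 on the other 4. Visceral Upk3b and subcutaneous Shox2 and Hoxc10 differed in the same direction. Other depot markers did not. Subcutaneous Hoxc9 was highest on HF20 (1.54, against -0.33 to 0.31). Visceral Hoxa5 (-3.48) lay inside the range of the other 4 (-3.64 to -1.67), and visceral Nr2f1 was above background on HFC only. The week 6 arrays thus did not match each other in Wt1, Tcf21 and Tbx15, and their depot was not tested.

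The carbon-supply step comes first in the pathway, and no difference between the diets was called for it. Acly levels on the LFC diet ranged from 0.35 (week 15) through a median of 2.29 to 5.36 (week 12) over 11 arrays. On the HFC diet they ranged from 0.15 (week 6) through 0.76 to 3.06 (day 6) over 10 arrays. The lowest LFC array lay inside the HFC range and the highest HFC array inside the LFC range, so the groups overlapped. Me1, which yields NADPH, spanned 2.78 to 6.56 on LFC (median 3.48) and 1.38 (week 12) to 6.03 on HFC (median 3.59), with no separation of the groups.

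Acaca, which commits acetyl-CoA to fatty acids, ranged from -2.06 to 4.58 on LFC (median -0.51) and from -2.47 (week 12) to 3.25 on HFC (median -0.32). Fasn ranged from 5.39 (week 3) to 6.51 on LFC (median 6.03) and from 3.22 (week 12) to 6.82 (week 18) on HFC (median 5.79). The brightest Fasn probe was saturated on 19 of 39 arrays, so its upper values are lower bounds. A dimmer Fasn probe, saturated on none, had an SD of 2.32 over the arrays against 0.97 for the bright one, and its levels ran from -0.66 to 5.66 on LFC and from -2.45 to 4.12 on HFC.

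Elovl6 ranged from 0.03 (week 3) to 5.90 (week 12) on LFC with a median of 1.33, and from -0.99 (week 12) to 3.47 (day 6) on HFC with a median of 0.05. In the KAL-1 groups it ranged from -1.14 to 0.11 (HF5), from -0.68 to 1.76 (HF20) and from -0.71 to 1.39 (HF75). No HF5 array reached the LFC median. Scd1 was 3.58 (week 3) to 6.62 on LFC (median 5.54) and 3.40 to 6.13 on HFC (median 5.41). Scd2 was 0.68 (week 3) to 5.77 on LFC (median 2.90) and 1.10 (week 12) to 4.79 on HFC (median 3.37). Without LFC week 3 the lowest LFC levels were 4.61 for Scd1 and 2.02 for Scd2. Scd1 was saturated on 13 of the 39 arrays (4 on LFC and 4 on HFC), so its upper values are lower bounds. The ranges of both desaturases overlapped between the diets.

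Among the regulators, Thrsp ranged from 2.53 (week 3) to 6.52 on LFC (median 4.12) and from 2.01 to 6.07 on HFC (median 4.05). Mlxipl ranged from -2.14 to 4.72 on LFC (median -0.33) and from -2.85 to 3.36 over the 9 HFC arrays that gave a value (median 1.02). Srebf1 was 1.96 (week 3) to 6.16 on LFC (median 3.65) and 2.64 (week 12) to 5.52 on HFC (median 3.86). Without LFC week 3 the lowest LFC levels were 2.78 for Thrsp and 2.81 for Srebf1. The genes varied from array to array by more than the median probe. Over probes well above background on the 37 arrays that did not stand apart, the median SD was 0.61 and the 95th percentile 1.35. On those arrays the SD was 0.92 for Fasn, 1.09 for Srebf1, 1.20 for Scd1, 1.21 for Scd2 and 1.25 for Acly. Me1, Thrsp, Elovl6, Acaca and Mlxipl had SDs from 1.44 (Me1) to 2.44 (Mlxipl).

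LFC week 12 held the highest LFC level of Acly, Acaca, Elovl6, Mlxipl and Scd2. There, Acaca was 4.58, Acly 5.36, Elovl6 5.90, Me1 5.90, Mlxipl 4.72, Scd2 5.77 and Srebf1 5.71. 7 of the 10 genes had a saturated spot on it, so these values can understate the level. The same array had the highest level of Cidea, a gene of brown and beige adipocytes, at week 12 (5.67, against -2.09 to 3.32 on the other 4 arrays). Of the other brown fat markers, Cox8b, Elovl3 and Cpt1b were highest there too. Ucp1 was not: it was -3.11 there and -6.01 to -1.71 on the other 4. The part of these markers in the lipogenic levels was not tested.

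**Figure D1:**
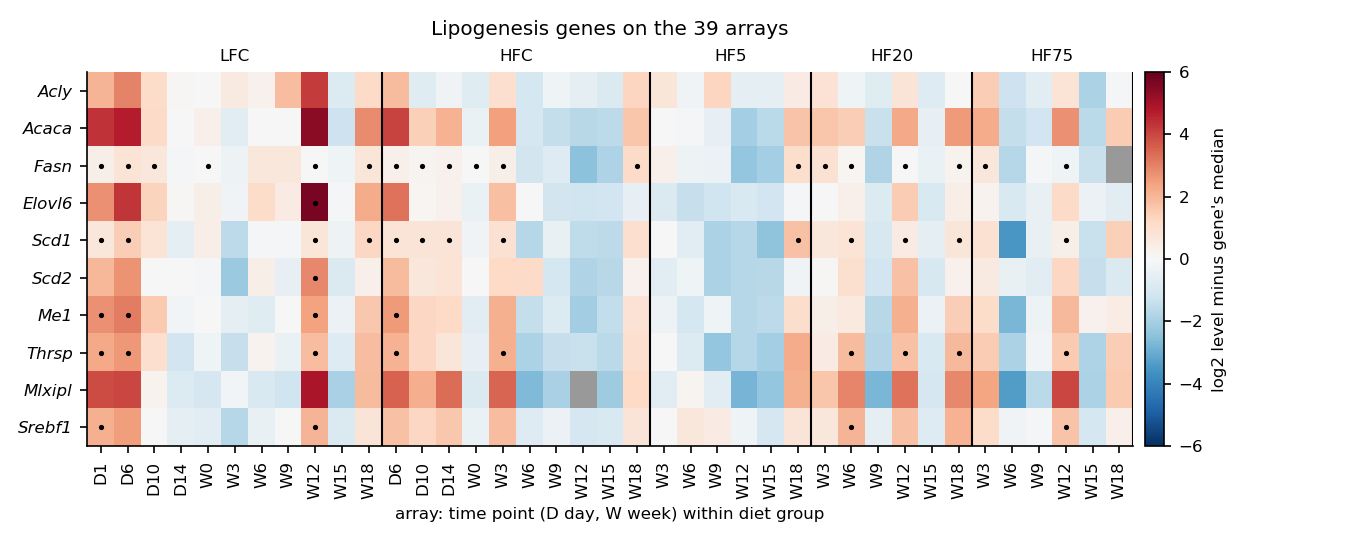
Level of the 10 lipogenesis genes (rows) on each of the 39 arrays (columns, by group and time point), as the log2 level minus the median of that gene. Dots mark saturated spots and grey a missing one. The LFC week 12 and day 6 arrays were high and the HF75 week 6 array low across the rows.

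The members varied together from array to array. Ordered by the median level of the 10 genes, HF75 week 6 (1.20), HFC week 12 (1.38), HF5 week 12 (1.47) and HF5 week 15 (1.56) were lowest, and LFC day 6 (5.88), LFC week 12 (5.74), LFC day 1 (5.32) and HFC day 6 (5.09) were highest. Over the 37 arrays that did not stand apart, Pearson's r among the 45 pairs of genes ran from 0.45 (Fasn with Elovl6) to 0.95 (Acaca with Mlxipl), with a median of 0.77, and the median Spearman's rho was 0.76. The largest Benjamini-Hochberg adjusted permutation p over the 45 pairs was 0.00585, and the smallest unadjusted p was 1e-05, the smallest that 100000 resamples can give. With values centred on the time point, the median r was 0.69, and 44 pairs passed, the exception being Acly with Srebf1 (r = 0.29). By Spearman's rho 38 of the 45 centred pairs passed, with a median of 0.58 and a lowest of 0.19. The share of passing pairs over all probes was not computed. Of 18692 probes well above background on the 37 arrays, 3.04% had r above 0.8 with the members' score (the mean of the 10 scaled genes). The median r of these probes was -0.06. Without the pair of arrays farthest from the median, the median r was 0.73.

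These correlations share array, RNA preparation and scaling. The mean of 8 adipocyte markers (Adipoq, Plin1, Fabp4, Cidec, Lep, Cfd, Lipe and Pnpla2) correlated with the members' score at r = 0.76, and at 0.72 within time points. Of 39 arrays, Fabp4 was saturated on 39, Cfd on 27, Cidec on 18, Adipoq on 16, Plin1 on 10 and Pnpla2 on 6. Lep and Lipe had no saturated array. Fabp4 was 9.05 on HF5 week 9, where the array's 75th percentile was 119.5, and 5.42 on HF75 week 12, where it was 1472. Saturated on every array, Fabp4 thus fell as the array's 75th percentile rose. The marker mean therefore follows array brightness in part, and by how much was not tested. By gene, r with the marker mean was highest for Mlxipl (0.82), Srebf1 (0.81), Thrsp (0.79) and Scd1 (0.78), and lowest for Scd2 (0.50), Acly (0.50) and Elovl6 (0.38). The regulators thus followed the adipocyte markers more closely than Acly and Elovl6 did, as a description of these arrays. The score had r = 0.67 with the brown fat markers (0.50 within time points) and -0.48 with the subcutaneous depot markers (-0.34 within time points). It had r = -0.41 with the macrophage markers (0.01 within time points), 0.33 with the brightness of the array and 0.35 with its share of probes above background. In bulk tissue, fewer adipocytes and less RNA of these genes per adipocyte cannot be told apart.

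**Figure D2:**
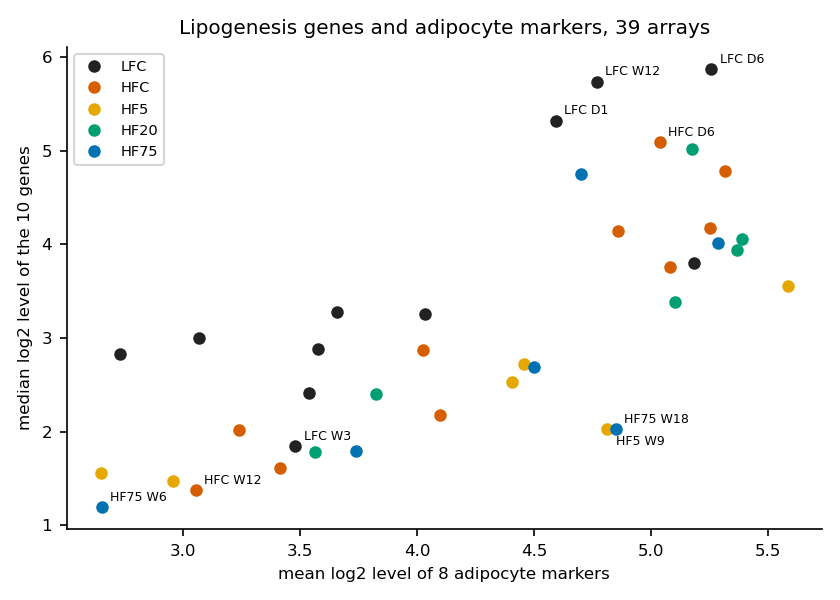
Median level of the 10 lipogenesis genes on each array (y axis, log2) against the mean level of 8 adipocyte markers (x axis, log2), 1 point per array, coloured by group. The points rise together. For the mean of the 10 scaled genes, in place of the plotted median, r was 0.76 over the 37 arrays other than LFC week 3 and HFC week 12.

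The comparison of HFC with LFC asks what dietary fat and sucrose did to the pathway, pairing the arrays of a time point over the 10 time points that both groups have. Acly and Elovl6 were lower on HFC at 8 of 10 time points each. The mean Acly level was 1.16 on HFC and 2.31 on LFC, a difference of -1.15 (SE 0.43, limma p = 0.0208, adjusted p = 0.998), and the SD of the paired differences was 1.52. The mean Elovl6 level was 0.34 on HFC and 1.76 on LFC, a difference of -1.42 (SE 0.63, limma p = 0.0440), with an SD of 2.28. Neither passed the adjusted threshold of 0.05.

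The other 8 genes had an unadjusted p above 0.05. Fasn differed by -0.69 (SE 0.32, limma p = 0.0534) on its bright probe, which was saturated on 6 LFC and 6 HFC arrays, and by -0.86 (p = 0.0494) on its dimmer probe. Acaca differed by -0.68, Me1 by -0.55, Scd1 by -0.32, Thrsp by -0.30 and Scd2 by -0.10. Srebf1 was 0.26 and Mlxipl 0.68 above LFC, Mlxipl over the 9 pairs with a value. 8 of 10 differences were below 0, and their median was -0.43 against 0.03 over all probes tested. 0 of the 10 genes were called at an adjusted p under 0.05, as were 0% of all 29168 probes. At an unadjusted p under 0.05 there were 2 of the 10, against 3.05% of all probes, and an unmoderated paired test gave 1, Acly, and 0 after Benjamini-Hochberg adjustment. With normexp background or with median scaling, 0 of the 10 reached an unadjusted p under 0.05, against 0.631% and 2.06% of probes, and 7 of 10 were lower. Of all probes 64.7% and 39.5% were lower in these settings.

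The weeks of the 2 arrays that stood apart differed in opposite directions. At week 3, where LFC stood apart, all 10 genes were higher on HFC, with a median difference of 2.91. At week 12 HFC stood apart, and LFC was at its highest for Acly, Acaca, Elovl6, Mlxipl and Scd2. The 9 genes with a value were all lower on HFC there, with a median of -4.52. The median level of the 10 genes at week 12 was 5.74 on LFC and 1.38 on HFC. It was 1.47 on HF5, 5.02 on HF20 and 4.75 on HF75. Without both arrays Acly differed by -0.90 (limma p = 0.00742) and Elovl6 by -1.16 (p = 0.00148), and the median of the 10 was -0.43. Without week 12 altogether, the median was -0.04 and 5 of 10 were lower, while Acly (-0.75) and Elovl6 (-0.81) kept their sign.

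The sign of the group of genes changed from time to time. On day 6 all 10 were lower on HFC (median -0.65), on day 10 they were divided (0.10), and on day 14 Acly alone was lower (-0.26) and the median was 1.33. At week 9 and week 15 all 10 were lower (medians -0.91 and -0.82). Day 14 and week 0 name the same day of diet but were scanned in different periods. On the HFC diet Mlxipl was 3.17 on day 14 and -1.03 at week 0, Srebf1 was 5.26 and 3.25, and Acaca was 1.26 and -1.25. On the LFC diet Srebf1 was 3.06 and 3.01, and Acaca was -0.86 and -0.51. The gaps of Mlxipl, Srebf1 and Acaca between these HFC arrays were larger than the mean diet difference of any of the 10 genes.

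**Figure D3:**
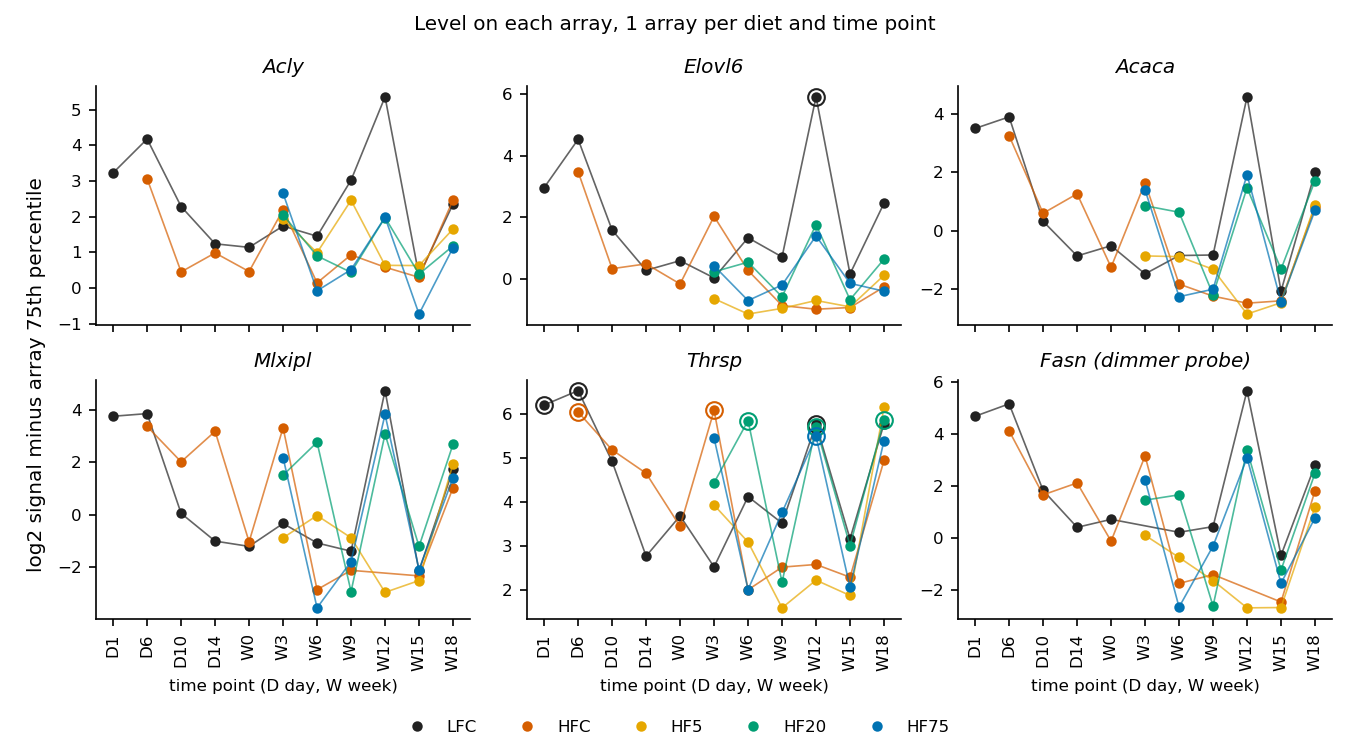
Level (log2, y axis) of Acly, Elovl6, Acaca, Mlxipl, Thrsp and the dimmer Fasn probe by time point (x axis) in the 5 groups, 1 array per point, with open rings for saturated spots. LFC lies above HFC for Acly and Elovl6 at 8 of 10 shared time points, and week 12 holds the highest LFC values of Acly (5.36), Elovl6 (5.90), Acaca (4.58) and Mlxipl (4.72).

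Over weeks 3 to 18 alone, all 10 genes were lower on HFC than on LFC in the fit, with a median of -0.81. Mlxipl has no HFC week 12 value, and over its 5 measured pairs the mean difference was 0.05. Elovl6 differed by -1.89 (SE 0.63, limma p = 0.0060), Acly by -1.27 (p = 0.0218) and Fasn by -1.04 (p = 0.0385). The 6 paired differences of Elovl6 had an SD of 2.91. The bright Fasn probe was saturated on 2 of the 6 arrays of each group, and the dimmer one differed by -1.78 (p = 0.0561). These were 3 of the 10 genes at an unadjusted p under 0.05, against 2.31% of all 31452 probes, and 0 of 10 and 0% of probes were called after adjustment, with 0 at either threshold by the unmoderated paired test. Without week 12 none of the 10 reached an unadjusted p under 0.05, and the median was -0.17. Without LFC week 3 and HFC week 12 the median was -0.93.

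The mean of the 4 groups on the high fat diet against LFC over the same weeks draws on 24 arrays against 6 and shares its LFC and HFC arrays with the comparison above. Elovl6 was 0.03, 1.02 and 5.90 (lowest, median, highest) on the LFC arrays and -1.14, -0.34 and 2.02 on the high fat arrays. The median of the high fat arrays was below the lowest LFC array, but the groups overlapped. The difference was -1.88 (SE 0.49, 95% interval -2.90 to -0.86, limma p = 0.0009, adjusted p = 0.758). Acly was 0.35, 2.05 and 5.36 on LFC and -0.72, 0.96 and 2.65 on the high fat arrays, a difference of -1.24 (SE 0.41, limma p = 0.00598). On these weeks the lyase and the elongase were the pair of members with an unadjusted p under 0.05.

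The remaining genes lay between -0.87 (Acaca) and 0.32 (Srebf1), with Fasn at -0.73, Me1 at -0.55, Scd1 at -0.38, Thrsp and Scd2 at -0.37 and Mlxipl at -0.27. 9 of 10 were lower and the median was -0.46, against 0.04 over all probes. 0 of 10 and 0% of probes were called after adjustment. At an unadjusted p under 0.05 the members gave 2 of 10 and all probes 6.1%, and the unmoderated paired test gave 0. The dimmer Fasn probe differed by -1.96 (SE 0.68, limma p = 0.00924). The 3 other Acaca probes differed by -1.41 (p = 0.0203), -0.95 and -0.66, the latter 2 with p above 0.05.

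Elovl6 kept its sign in every setting tried, from -1.15 without week 12 (limma p = 0.00512) to -2.36. Without LFC week 3 and HFC week 12 it was -2.20 (p = 5.49e-05), Acly was -1.49, and 5 of 10 genes had an unadjusted p under 0.05, against 1.63% of probes. With each array scaled to its median in place of the 75th percentile, 5 of 10 genes were lower and the median of the 10 was -0.05. Over all probes the median was then 0.28 with 29.6% lower, against 0.04 and 46.3% with the 75th percentile. Adipocyte markers, unlike most of the members, were higher on HFC over 10 time points for 6 of 8 genes, with a median of 0.41 and none called, and group medians of the marker mean were 3.66 on LFC (range 2.73 to 5.26) and 4.48 on HFC (3.06 to 5.31). That mean, whose markers were partly saturated, was used as a covariate, added after the data were seen. All 10 genes were then lower on HFC over 10 time points (median -0.92, 7 with an unadjusted p under 0.05 against 3.95% of probes). Elovl6 in the mean of 4 groups was -2.15 (limma adjusted p = 0.143). Macrophage markers were higher on HFC for 7 of 8 genes (median 0.66, none called), and their part in the result was not tested.

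**Figure D4:**
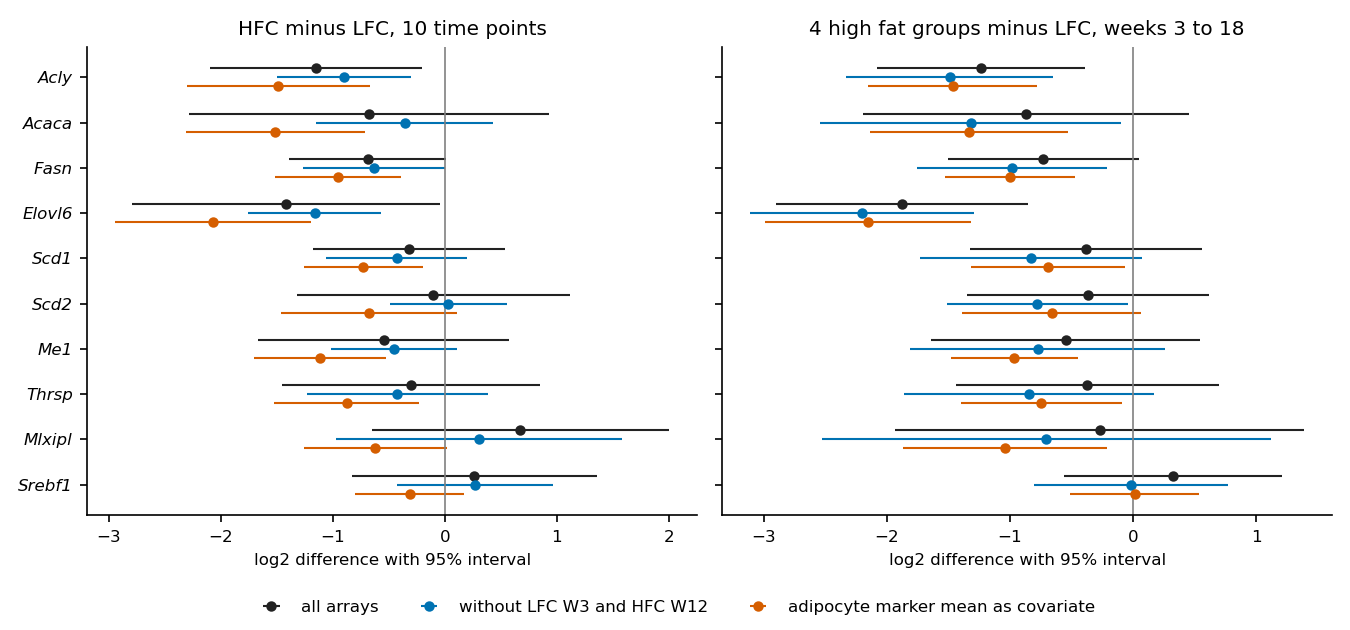
Difference in level (log2, x axis) of each lipogenesis gene, HFC minus LFC over 10 time points and the 4 high fat groups minus LFC over weeks 3 to 18, with 95% intervals from limma. Symbols stand for the fit on all arrays, without LFC week 3 and HFC week 12, and with the adipocyte marker mean as a covariate; Elovl6 is the gene farthest below 0 in each fit, at -1.42 and -1.88 on all arrays.

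KAL-1 was given on top of the high fat diet, and each dose was compared with HFC over weeks 3 to 18. In the fit, HF5 had 7 of 10 genes lower than HFC with a median of -0.21. HF20 had all 10 higher with a median of 0.83, and HF75 had 9 of 10 higher with a median of 0.28. Mlxipl has a missing HFC value, as given above. Over its 5 measured pairs the mean difference was 0.12 for HF5, 1.15 for HF20 and -0.17 for HF75. For HF5 and HF75 these means lie on the other side of 0 from the fit that gave the counts. The 3 comparisons share the HFC arrays. The medians over all probes were -0.03, -0.07 and -0.01. In the order HF5, HF20 and HF75, 0 of 10 genes were called after adjustment each time, as were 0% of probes, and 0 of 10 had an unadjusted p under 0.05, against 3.42%, 4.84% and 1.5% of probes. For the mean of the 3 doses the median was 0.31 and 9 of 10 were higher, with 0 called (0% of probes) and 0 at the unadjusted threshold (1.75% of probes). The unmoderated paired test gave 0 for each of these 4 comparisons.

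At 20 µg the differences ran from 0.05 (Acly) to 1.27 (Acaca), with Thrsp at 1.10 (limma p = 0.106) and Srebf1 at 0.94 (p = 0.0954). The Acaca value rested on its brightest probe: the 3 others gave 0.71, -0.06 and -0.62. The widest gaps lay at weeks 6 and 12. At week 6, 9 of 10 genes were higher on HF20 than on HFC (median 2.24), and at week 12 all 9 with a value were higher (2.77). The week 6 pair differed in Wt1, Tcf21 and Tbx15 and in scan date, as described above. Week 12 holds the HFC array that stood apart. Without week 6 the median over the members was 0.52, without week 12 it was 0.37, and without LFC week 3 and HFC week 12 it was 0.45. Without week 3 it was 1.16, with 3 genes at an unadjusted p under 0.05 against 22.7% of probes.

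Adipocyte markers were higher on HF20 than on HFC for 6 of 8 genes (median 0.57), and all 7 measured genes of the epididymis duct were higher (median 1.74). With the adipocyte mean, whose markers were partly saturated, as a covariate, the median of the lipogenesis genes was -0.00 and 6 of 10 were lower. The part of the other markers was not tested. HF75 gave a median of -0.15 without week 12, where the median difference was 2.75, 0.03 without the 2 arrays that stood apart and 0.09 with the covariate. HF5 gave 0.17 without week 3, where the median difference was -2.02, 0.17 with arrays scaled to the median, and -0.62, with all 10 lower, without the 2 arrays that stood apart. For the mean of the doses the median was -0.00 without the 2 arrays.

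**Figure D5:**
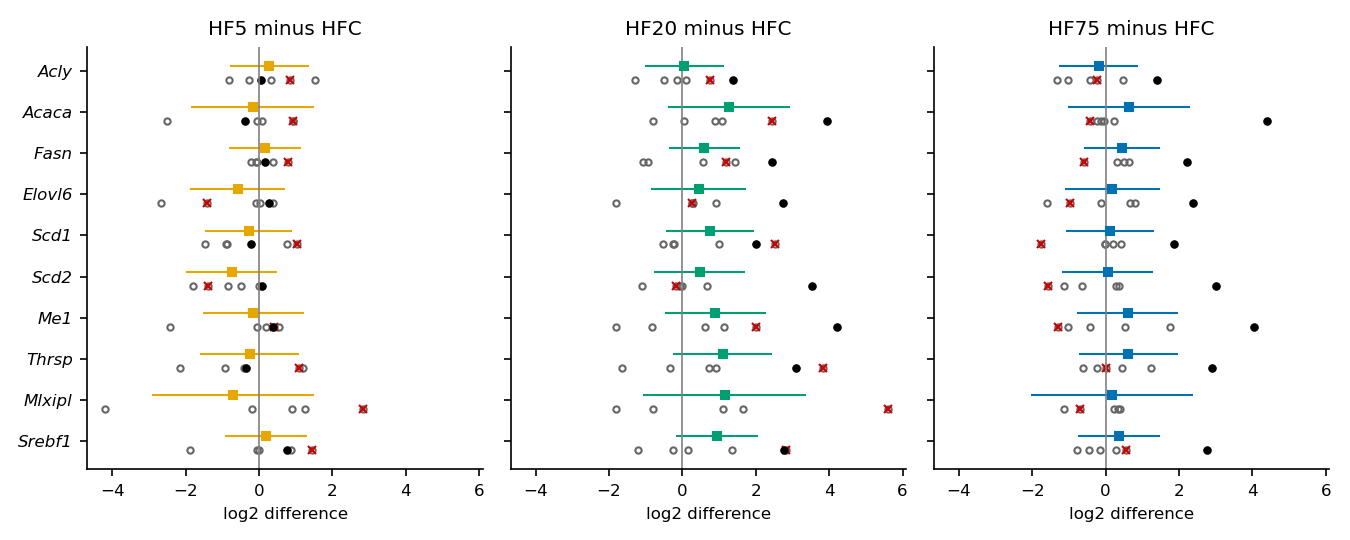
Difference in level (log2, x axis) of each lipogenesis gene, HF5, HF20 and HF75 minus HFC in 3 panels. Squares are the limma estimate over weeks 3 to 18 with its 95% interval, circles are single weeks, red crosses week 6 and black dots week 12; the week 12 dots lie far to the right at 20 and 75 µg, where the median differences were 2.77 and 2.75, but not at 5 µg (0.07).

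Week of the study gave calls among the members where no comparison of groups did. With the 5 groups as a term, the effect of week over weeks 3 to 18 passed the adjusted threshold for 3 of the 10 genes, against 10.7% of the 31452 probes (3377). These were Thrsp (F = 5.54, limma adjusted p = 0.0294), Mlxipl (F = 5.31, adjusted p = 0.0334) and Acaca (F = 4.62, adjusted p = 0.0458), whose 3 other probes did not pass (adjusted p = 0.0565 to 0.0869). At an unadjusted p under 0.05 there were 8 of 10 genes, against 32.2% of probes, and the median F of the members was 3.94 against 1.90 over all probes. Elovl6 had the lowest F (2.20, adjusted p = 0.211).

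At week 15 the 5 arrays lay low, with Thrsp at 1.89 to 3.17 and Mlxipl at -2.50 to -1.21. At week 18 they lay high, with Thrsp at 4.94 to 6.14 and Mlxipl at 1.02 to 2.68. Acaca was -2.46 to -1.31 at week 15 and 0.70 to 1.99 at week 18. No array of one week reached the range of the other for these 3 genes, whichever the diet. The adipocyte marker mean also separated these weeks, at 2.65 to 3.83 in week 15 and 4.85 to 5.58 in week 18. With that mean as a covariate 3 genes passed again (15.9% of probes), namely Mlxipl (limma adjusted p = 0.0154), Scd2 (0.0328) and Acaca (0.0482), while Thrsp did not (0.0517). The weeks were scanned on different dates, and week and scan date cannot be told apart. The dimmer Fasn probe had F = 8.17 (adjusted p = 0.0130). The count of 3 was 10 without LFC week 3 and HFC week 12, where 22.3% of probes passed, and 0 without week 9, week 15 or week 18, where 2.15%, 4.17% and 4.15% passed.

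The later arrays (weeks 3 to 18) were also set against the early ones (days 1 to 14 and week 0). On LFC, with 6 late and 5 early arrays, all 10 genes were lower late, from -0.04 (Acly) to -1.04 (Acaca), with a median of -0.69 against -0.09 over all probes. The 3 other Acaca probes gave -0.70, -0.51 and 0.52. 0 of 10 were called against 0.49% of probes, and 0 of 10 had an unadjusted p under 0.05 against 5.52%. On HFC, with 6 late and 4 early arrays, all 10 were lower too, from -0.14 (Acly) to -2.47 (Mlxipl), with a median of -1.17 against 0.03. 0 of 10 were called against 0% of probes, with a smallest adjusted p of 0.328 (limma), and 0 of 10 had an unadjusted p under 0.05 against 16.8%.

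Against week 0 alone, the early array scanned in the same period as the late ones, the medians were 0.54 on LFC and 0.11 on HFC. The direction thus depended on which early arrays were used, and week 0 is 1 array per diet. On LFC the median level of the 10 genes was 2.83 on day 14 and 2.88 at week 0. With array weights the LFC median was -0.02. With the adipocyte mean as a covariate the HFC median was -0.24. The change of the HFC minus LFC difference from early to late was below 0 for all 10 genes, with a median of -0.85 against 0.15 over all probes. 0 of 10 were called (0% of probes), and 0 of 10 had an unadjusted p under 0.05 (5.14% of probes). Without week 12 that median was -0.18, and without week 3 it was -1.53.

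Of 40 further genes of the pathway in 6 lists, 38 or 39 could be tested. None was called between HFC and LFC, between a KAL-1 dose and HFC, or between late and early arrays. Between HFC and LFC over 10 time points 22 were higher and 16 lower (median 0.10), and the extremes were Pnpla3, a lipid droplet acyltransferase and lipase (0.53), and Acss2, which makes acetyl-CoA from acetate (-1.11). Between the 4 high fat groups and LFC 18 were higher and 21 lower (median -0.02), with Nr1h3, the oxysterol receptor LXR alpha, at 0.62 and Acss2 at -1.41 (limma p = 0.077). The wider pathway thus had medians near 0 for diet where the 10 genes had -0.43 and -0.46, and the difference between the lists was not tested.

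At 20 and at 75 µg of KAL-1, 33 of 39 of these genes were higher than on HFC (medians 0.47 and 0.26), with Agpat2, an enzyme of triglyceride synthesis, at 1.64 on HF20 and Pcx, pyruvate carboxylase, at 0.92 on HF75. Scd4 was lowest in both (-0.87 and -1.09). On HF5 20 were higher and 19 lower. Late against early, 33 of 39 were lower on LFC (median -0.43) and 32 of 38 on HFC (-0.90, with Agpat2 at -2.92). The week effect was called for 6 of 39, a share near the 10.7% of all probes. These were Insig1, which holds SREBP in the endoplasmic reticulum (F = 5.85, limma adjusted p = 0.0281), Gpam (adjusted p = 0.0259), Agpat2 (0.0466) and Dgat2 (0.0377) of triglyceride synthesis, the desaturase Fads1 (0.0363) and the transcription factor Usf1 (0.0352).

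Genes outside the list whose levels ran most like the members' mean were sought over the 37 arrays among 14185 gene names. The 8 closest were Mod1 (r = 0.97), an older symbol whose probe matched the reference of Me1, Gm7049 (0.97), 2010003K11Rik (0.96), Acss2 (0.96), LOC677051 (0.96), LOC677317 (0.95), Aacs, which activates acetoacetate (0.95), and Agpat2 (0.94). By list, the members' score had r = 0.96 with genes of precursor supply, 0.94 with esterification, 0.92 with NADPH supply and 0.59 with desaturation and elongation, the last of which was 0.22 within time points.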

How the data were processed

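Epididymal adipose RNA was measured on 39 Agilent one-colour (Cy3) arrays, 1 per group and time point. The deposited files hold intensity values made by the authors with Agilent Feature Extraction, whose version is 10.5.1.1 per the file headers and 9.1 per the labels, with background subtracted and no scaling between arrays. A deposited table of the authors' log2 comparisons was not used. No column was left unmapped (0 unused sample columns).

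The 75th percentile of each array's log2 processed signal was subtracted, outlier spots were set to missing and spots of a probe were averaged. A fit took the probes that passed the scanner's background test on 10 or more of 20 arrays (HFC and LFC pairs), 6 of 30 (weeks 3 to 18), 5 of 11 (LFC) or 4 of 10 (HFC). Differences were tested with limma 3.58.1 in R 4.3.3 (moderated linear models, time point as a block), with Benjamini-Hochberg adjustment over all probes tested and a threshold of 0.05. The code was tested on simulated data. Correlations used a permutation test with 100000 resamples (scipy 1.17.1, Python 3.11.15).

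The 10 genes, the pathway lists and the marker lists were chosen with earlier results of these data known. All 10 genes are named, and from the pathway lists any gene past the threshold and those with the largest difference each way. Alternatives were normexp background (offset 50), quantile or median scaling, outlier spots kept, other filters, array weights, scan date or slide as a block, the mean over probes, each time point left out, both arrays that stood apart left out, and an unmoderated paired test on the differences by time point. The study's own test of control against treated values within a time point could not be run with 1 array per group. The adipocyte covariate and the dimmer Fasn probe were chosen after seeing the data. Labels give no animal identity, so spread is that between arrays, whose small number sets the precision.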

Additional observations from a re-analysis of the deposited data

How the results depend on the processing

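The count of genes past the adjusted threshold for the effect of week, 3 of 10 in the settings used, moved most. It was 10 without LFC week 3 and HFC week 12 (22.3% of all probes, against 10.7%), 10 with array weights (74.6%), 7 with the adipocyte covariate without those 2 arrays (21.5%), 6 with slide as a random block (16.4%), 1 with outlier spots kept (7.21%), 0 with normexp background (0.601%) and 0 with median scaling (3.98%). In each of these 7 settings the share of all probes moved in the same direction as the count. Leaving out 1 week at a time gave 0 to 5 (2.15% to 18.5%). With array weights 1 gene was called between the 4 high fat groups and LFC (Elovl6, -2.14, the 1 probe called of 31452), and 6 between late and early HFC arrays, where 25.9% of all probes were called; the cause was not tested. In the other comparisons the count stayed at 0 in every setting run. Leaving out 1 time point moved the median of the 10 genes between -0.78 and -0.04 for HFC against LFC over 10 time points, -1.49 and -0.17 over weeks 3 to 18, -0.94 and -0.14 for the 4 high fat groups, -0.40 and 0.17 for HF5, 0.37 and 1.16 for HF20, and -0.15 and 0.56 for HF75. With median scaling 3 of 10 genes were lower on HF5 than on HFC in place of 7, and with normexp 9. Of all probes 26.8% were lower with median scaling, 48.4% with normexp and 52.2% in the settings used. Of 2055 differences of single genes under alternatives, 2048 kept their side of the threshold, 7 passed it newly, and 186 that were not called changed sign. No paired analysis was possible by replicate number, because the labels give none that run across the groups; arrays were paired by time point, as the block of each fit. Saturated spots limit the upper end of Fasn, Scd1, Thrsp and the adipocyte marker mean, and 1 array per point limits the precision of each value.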
